A study of Mus musculus with 6 samples.

Results

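The TRIM and RNF genes are the numbered members of the tripartite motif and RING finger gene families, most of which encode ubiquitin ligases. Every row of the deposited expression table whose gene symbol starts with Trim or Rnf followed directly by a digit was taken, other than Rnf11 and Rnf31. This gave 104 gene IDs of the 11789 listed, 41 of them TRIM and 63 RNF, under 103 symbols, since Rnf26 is carried by 2 gene IDs. The expression of these genes was measured by RNA-seq in alveolar macrophages (phagocytes that live in the air spaces of the lung) of C57BL/6 mice exposed to BLM, which is how the labels abbreviate the exposure. One group of 3 libraries (BLM1, BLM2 and BLM3) came from wild-type mice. The other group of 3 (A20-1, A20-3 and A20-4) came from mice with a conditional knockout of A20, the ubiquitin-editing inhibitor of NF-kB encoded by Tnfaip3. Neither the driver of Cre nor the cells in which A20 was deleted is named in the labels, and the same holds for the age of the mice, the dose and time of the exposure and the way the macrophages were isolated. Since nothing says whether a library is 1 animal or a pool, the p-values below measure the spread between these libraries, which may be technical.

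Ubiquitin is attached to proteins by a chain of an activating enzyme, a conjugating enzyme and a ligase, and the ligase chooses the target. RING ligases bring the loaded conjugating enzyme to the target. TRIM proteins carry a RING, B-boxes and a coiled coil, followed in many by a SPRY domain that binds targets, and a number of them are induced by interferons and act in antiviral sensing. RNF is a naming group for proteins with a RING and little else in common, among them endosomal membrane ligases, ligases of the RING-between-RING (RBR) type, DNA damage ligases and cullin subunits. In macrophages, A20 and several of these ligases act on the same signalling proteins downstream of pattern receptors.

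Levels are given as FPKM, fragments per kilobase of transcript, scaled to the size of each library. For Tnfaip3, the targeted gene, knockout libraries had 8.44 (A20-1), 12.9 (A20-3) and 6.80 (A20-4), and wild-type libraries 4.47 (BLM1), 2.18 (BLM2) and 21.6 (BLM3). It was not lower in the libraries labelled knockout, whole-gene FPKM cannot show a deleted exon, and each direction below is one between libraries as labelled. Library BLM3 stood apart from the other 5. Summed FPKM of neutrophil genes (9 of 11 listed) was 2830 in BLM3 and 114.9 to 163.1 elsewhere. S100a8 (860.8) and S100a9 (1535) held most of the BLM3 sum. Of the 8 neutrophil genes that could be tested, 6 had BLM3 as the highest library, beside 26.5% of all genes tested. Ltf (28.93 in BLM3, 35.45 in A20-1) and Mmp8 (32.18 in BLM3, 41.67 in A20-3) did not. Retnlg, which is among the 6, could be tested only through BLM3, at 102.7 there and at most 1.054 elsewhere. Of 14 alveolar macrophage genes 13 were listed, with sums of 5633 to 8011 in the knockout libraries and 5987 (BLM1), 7193 (BLM2) and 4036 (BLM3) in the others. Chil3 alone ran from 2998 to 5471 and held most of each sum. The log2 difference (knockout minus wild type) was above 0 for 10 of the 13, with a median of 0.70, or 0.19 without BLM3. It was below 0 for Marco, Fabp4 and Lpl. Marco averaged 8.434 in the knockout and 32.21 in the wild-type libraries (limma adjusted p = 0.0466, by the test given below). The monocyte list (10 genes) summed to 339.3 to 456.7 in the knockout and 1174 to 1544 in the wild-type libraries. The epithelial list (10 genes) summed to 289.6 to 375.7 against 70.65 to 199.2, though 4 of its genes had differences below 0, and the median log2 difference of its genes was 0.31, or 0.01 without BLM3. The B cell list (6 genes) summed to 13.5 to 24.22 against 16.25 to 105.3. The T cell list (7 of 8 genes listed) summed to 186.3 to 193.1 against 138.4 to 251.3, the erythroid list (5 of 6) to 188.4 to 3551 against 316.6 to 2484, and the list of stroma and endothelium (3 of 8) to at most 7.601. In such bulk samples, fewer cells of a type and less RNA per cell cannot be told apart.

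Among the listed members, the RNF genes reached higher levels than the TRIM genes. Every listed gene averaged 0.5001 FPKM or more in its higher group, so silent members of either family are not seen here. The 3 most abundant members were RNF genes. Rnf149, which encodes a membrane ligase with a protease-associated domain, had a mean FPKM of 90.7 ± 42.7 (SD, n = 6 libraries). Rnf130, a membrane ligase of the same type, followed with 89.9 ± 6.28, and Rnf187, which encodes a coactivator of c-Jun, with 69.0 ± 9.97. The ranges of Rnf149 and Rnf130 overlapped, so their order is not settled by these libraries.

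Among the TRIM genes the leading levels were those of Trim25, a ligase that activates the RNA sensor RIG-I, with a mean FPKM of 38.1 ± 14.3 (SD, n = 6). Trim29, whose product is known to restrain innate signalling in alveolar macrophages, had 32.5 ± 7.52. Trim30a, an interferon-inducible inhibitor of NF-kB signalling, had 29.9 ± 14.7. The ranges of these 3 genes also overlapped, and their order is not settled either.

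The median of the members' mean FPKM was 6.016 for the TRIM and 8.21 for the RNF genes, beside 6.587 over all listed genes. A mean FPKM of 20 or more was reached by 5 TRIM and 13 RNF genes. Summed over the family, FPKM for TRIM was 372.3 (A20-1), 405.2 (A20-3) and 416.7 (A20-4) against 343.8 (BLM1), 326.5 (BLM2) and 447 (BLM3). Below, values before "against" are those of A20-1, A20-3 and A20-4 and values after it those of BLM1, BLM2 and BLM3, in this order. For RNF the sums were 819.6, 871.8 and 858.6 against 874.7, 820.6 and 992.9. BLM3 had the highest sum of the 6 libraries in both families, and the knockout and wild-type sums overlapped.

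**Figure D1:**
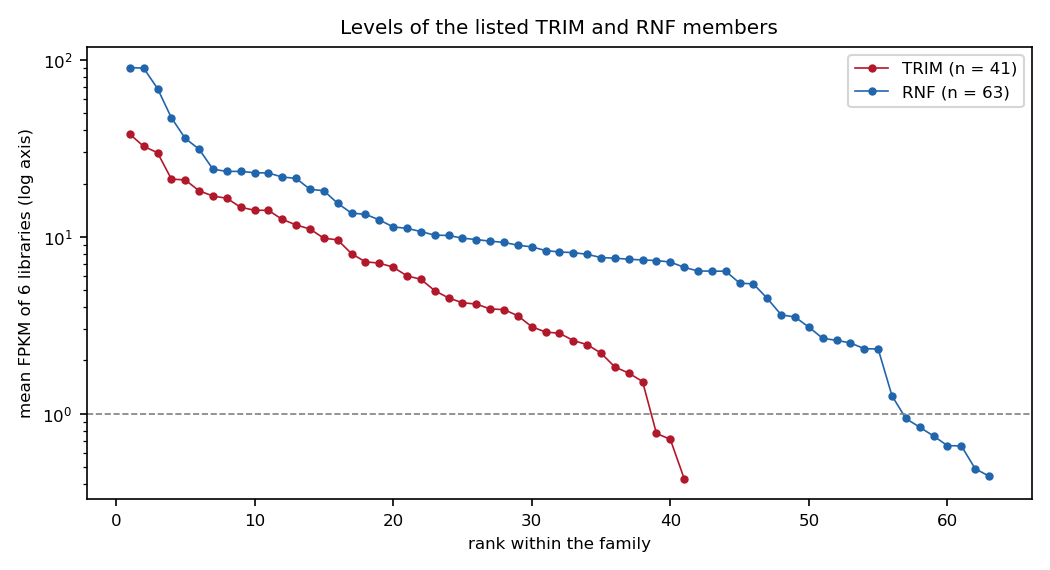
Mean FPKM over the 6 libraries (log axis) of each listed TRIM (red) and RNF (blue) gene, ranked within its family; the dashed line marks a mean FPKM of 1, the minimum for testing. The RNF curve starts at 90.7 and the TRIM curve at 38.1, and 3 TRIM and 7 RNF genes lie below the line.

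One of the 94 members that could be tested differed between the groups: Rnf128 fell in the knockout libraries. The test was limma on log2(FPKM + 1) over the 10696 genes that averaged 1 FPKM or more, with a threshold of 0.05 for the p-value adjusted over all of them. A gene past it is said to have risen or fallen, and differences are knockout minus wild type. Among 38 TRIM genes tested, 0 rose and 0 fell. Of 56 RNF genes tested, 0 rose and 1 fell. Over all genes 27 rose (0.252%) and 91 fell (0.851%), so a count of 1 in 94 is near the background. With FPKM rescaled to a common sum per library this split was 41 rises and 64 falls.

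The members not tested for low levels were Trim72, Trim30c and Trim34b, and Rnf170, Rnf144a, Rnf43, Rnf122, Rnf208, Rnf150 and the second gene ID of Rnf26 (ENSMUSG00000111409.1). At an unadjusted p under 0.05, 8 of 38 TRIM and 7 of 56 RNF genes passed, beside 20.3% of all genes. The smallest p that an exact permutation of 3 libraries against 3 allows is 0.1, so no single gene could pass by permutation alone.

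The families differed little in their typical difference and more in its spread. The median log2 difference was 0.12 for the tested TRIM genes (range -0.97 to 0.93) and 0.09 for the tested RNF genes (range -1.44 to 0.61), beside 0.02 over all genes. A difference above 0 was found for 24 of 38 TRIM, 34 of 56 RNF and 5663 of 10696 genes. The size of the difference, whatever its sign, exceeded 0.5 for 18.4% of the TRIM and 8.93% of the RNF genes, beside 14.9% of all genes. The knockout values lay wholly above the wild-type values for 10 of 38 TRIM and 9 of 56 RNF genes, where 15.9% of all genes did so. They lay wholly below for 3 of 38 and 4 of 56, where 13.1% of all genes did so. No test was made of the difference between the families.

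**Figure D2:**
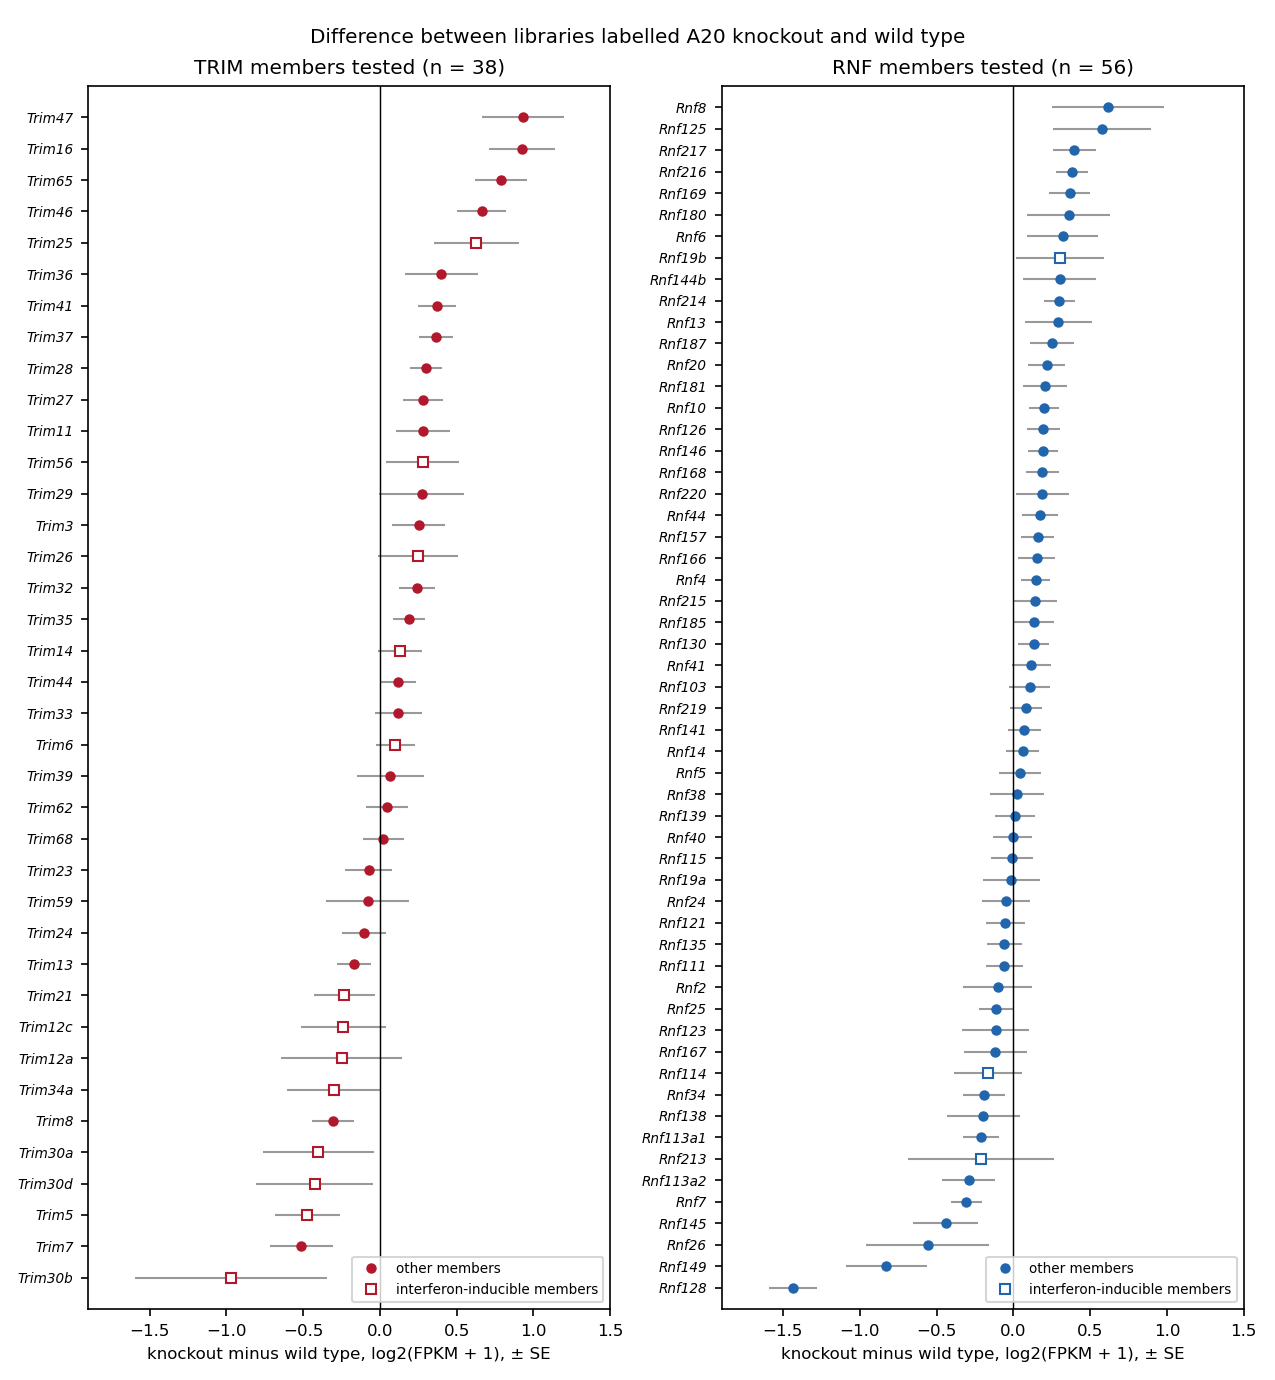
Log2 difference (knockout minus wild type, log2(FPKM + 1) scale) with its standard error for each tested TRIM (left, 38 genes) and RNF gene (right, 56 genes); open squares are the interferon-inducible members. Rnf128 lies alone at -1.44, the only member past the threshold, and the open squares fill much of the lower end of the TRIM panel.

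Among the RNF genes, the group of membrane ligases with a protease-associated domain held the family's widest differences. Rnf128 (ENSMUSG00000031438.11, GRCm38 chrX:139563316-139673145, plus strand) encodes GRAIL, an endosomal ligase known for the control of T cell unresponsiveness. It had 16.64, 13.77 and 18.98 FPKM in the knockout libraries against 53.51, 43.44 and 41.58. All 3 knockout values lay below all 3 wild-type values, and BLM3 was like the other wild-type libraries. The means were 16.46 ± 2.606 and 46.18 ± 6.421 (SD, n = 3 each), and the log2 difference was -1.44 ± 0.16 (SE, 95% interval -1.81 to -1.06, limma adjusted p = 0.0215).

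The fall of Rnf128 was -1.51 without BLM3 (limma adjusted p = 0.0147). It was not past the threshold when A20-1, A20-3, A20-4 or BLM1 was left out, with differences of -1.45, -1.32, -1.54 and -1.33 (limma adjusted p = 0.0776, 0.0946, 0.0643 and 0.0862). No 50-base run of its exons occurred in another gene of the annotation. The monocyte list moved in the same direction, with 4 of its 10 genes fallen, while the T cell sums overlapped between the groups. The part of these cell types in the fall of Rnf128 was not tested.

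Of its relatives, Rnf149 had an FPKM of 70.59, 59.27 and 59.69 in the knockout libraries against 97.60, 84.36 and 172.5. The groups did not overlap, with BLM3 far above the rest, and the difference of -0.83 ± 0.27 (SE) was not past the threshold (limma adjusted p = 0.166; without BLM3 -0.52 and 0.0760). An overlapping transcript, Gm15832, shares 24.9% of its exonic bases on the same strand, so its value is uncertain. Rnf130 stayed within a narrow band, at 88.29, 95.40 and 98.77 against 81.45, 89.60 and 86.13, a difference of 0.13 ± 0.10. Rnf13, an endosomal and lysosomal ligase, had a difference of 0.29 ± 0.22 with its lowest value in BLM3. Rnf150, picked out here after its values were seen, was below the minimum level, at 0.234, 0.151 and 0.266 against 1.048, 0.582 and 0.647. Every listed gene averaged 0.5001 FPKM or more in its higher group. A listed gene this low in the knockout libraries had to be higher in the wild type. The direction of Rnf150 thus adds nothing to those of Rnf128 and Rnf149. With every listed gene tested, its limma adjusted p was 0.116. In this group 5 of 7 listed genes were tested, with a median difference of -0.12 (0.06 without BLM3), 0 rises and 1 fall.

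The RBR ligases, which pass ubiquitin through a cysteine of their own, had the highest median difference of the RNF groups that were set, at 0.30 over 6 tested genes, with none past the threshold. Rnf216, which marks Toll-like receptors for degradation, had 8.688, 8.925 and 8.459 FPKM in the knockout libraries against 6.766, 6.857 and 5.751. The groups did not overlap, and the difference was 0.38 ± 0.10 (SE, limma adjusted p = 0.123). Rnf217, at 2.787, 2.679 and 2.852 against 1.979, 2.268 and 1.418, showed the same separation with a difference of 0.40 ± 0.14 (limma adjusted p = 0.188). Rnf144b was at 0.30 ± 0.24, with BLM3 at 4.090 and the other libraries at 7.404 to 9.380.

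The 8 ligases of chromatin, DNA damage and SUMO-targeted degradation had a median of 0.17, with none past the threshold. Rnf169, which binds ubiquitin marks at DNA breaks, had 8.045, 10.61 and 10.04 FPKM against 6.799, 7.920 and 6.771, without overlap (difference 0.37 ± 0.13, limma adjusted p = 0.193). Rnf8, which starts that ubiquitin signal, had the most positive difference of the family, 0.61 ± 0.37, carried by A20-3 at 6.650 while the other libraries lay between 1.358 and 2.148. Rnf8 shares 13.2% of its exonic bases with Gm28043, and its value is uncertain.

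The 9 tested members of the other membrane group, mostly ligases of the endoplasmic reticulum, had a median of 0.01. Rnf145, a sterol-regulated ligase, had 7.866, 7.557 and 8.269 FPKM in the knockout libraries against 11.95, 7.757 and 14.53, overlapping groups with a difference of -0.44 ± 0.21. Rnf180 was at 0.36 ± 0.27, with its lowest value, 4.389, in BLM3. For Rnf26 (ENSMUSG00000053128.15) the difference of -0.56 ± 0.40 was carried by BLM2 at 6.740, where the other libraries lay between 1.247 and 1.979. At BLM2 the second Rnf26 ID was listed at 0, and both IDs overlap in their exons, so the split between them is uncertain.

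Among the remaining RNF genes (22 tested, median 0.13), Rnf7, the RING subunit of cullin 5 ligases, had 29.99, 34.44 and 31.98 FPKM in the knockout libraries. The wild-type values were 41.91, 38.92 and 38.92, all above the knockout values and close together. The difference was -0.31 ± 0.10 (SE, limma adjusted p = 0.171). Of the 50-base runs in its exons 27.4% also occur in other genes, chiefly Emb, so its level is uncertain. Rnf187 had a difference of 0.25 ± 0.14.

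**Figure D3:**
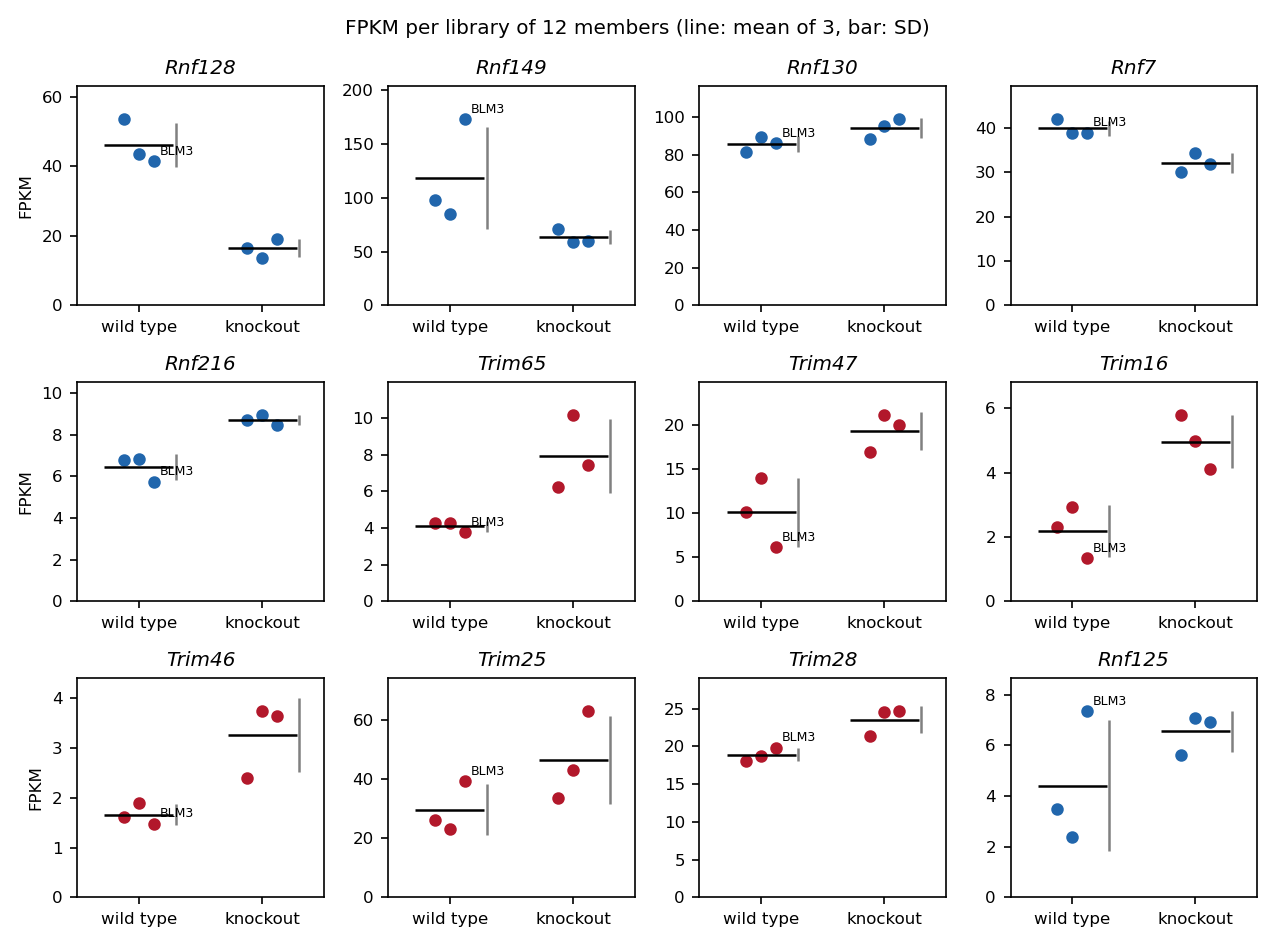
FPKM in each library of 6 RNF (blue) and 6 TRIM (red) genes by group, with the mean (line) and SD (bar) of 3 libraries and BLM3 marked. Rnf128 is the 1 gene of the 12 that passed the threshold; its knockout values of 13.77 to 18.98 lie below wild-type values of 41.58 to 53.51.

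In the TRIM family the widest positive differences belonged to Trim47, Trim16, Trim65 and Trim46, all with knockout values wholly above the wild-type values and none past the threshold. Trim65, whose product activates the RNA sensor MDA5, had 6.238, 10.14 and 7.436 FPKM in the knockout libraries against 4.256, 4.260 and 3.766. The wild-type values, BLM3 included, were close together. The difference was 0.79 ± 0.17 (SE, limma adjusted p = 0.0889; without BLM3 0.74 and 0.0878).

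Trim47 had 16.92, 21.07 and 19.95 FPKM against 10.09, 14.02 and 6.135, with BLM3 the lowest. Its difference was 0.93 ± 0.27 (SE, limma adjusted p = 0.134; without BLM3 0.65 and 0.0864). Trim47 (GRCm38 chr11:116105752-116127210) and Trim65 (chr11:116121846-116131128) overlap on the minus strand and share 225 exonic bases, which are 8.23% of those of Trim47 and 3.82% of those of Trim65. Reads from the shared bases could count for either gene, so their values are not wholly independent.

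Trim16, which lacks a RING and takes part in the clearance of damaged lysosomes, had 5.781, 4.985 and 4.123 FPKM against 2.327, 2.921 and 1.335. BLM3 was again the lowest, and the difference was 0.92 ± 0.22 (SE, limma adjusted p = 0.0994; without BLM3 0.71 and 0.0649). Trim46, known from the microtubules of the axon, had 2.399, 3.729 and 3.629 against 1.621, 1.884 and 1.482, a difference of 0.66 ± 0.16 (limma adjusted p = 0.106). It belongs with Trim36 to the microtubule-binding COS type, whose 2 genes had differences of 0.66 and 0.40 ± 0.24.

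Trim28, the corepressor of KRAB zinc finger proteins, had 21.44, 24.56 and 24.63 FPKM in the knockout against 18.13, 18.73 and 19.84 in the wild-type libraries. The groups did not overlap, though the difference was only 0.30 ± 0.10 (SE, limma adjusted p = 0.181). Trim37, a ligase of peroxisomes and centrioles, was nearly constant in the knockout libraries, at 4.893, 4.849 and 4.919, and lower in the others, at 3.703, 3.974 and 3.098 (0.36 ± 0.11, limma adjusted p = 0.150). Trim32, of the NHL type, had a difference of 0.24 ± 0.12. On the negative side, Trim7, a SPRY protein that binds glycogenin, had 1.464, 1.266 and 1.198 against 3.073, 1.426 and 2.593, with overlap at BLM2 (-0.51 ± 0.20, limma adjusted p = 0.230). Trim13, anchored in the endoplasmic reticulum, had a difference of -0.17 ± 0.11. Trim29 had a difference of 0.27 ± 0.28, which was -0.06 without BLM3, where its FPKM was 17.68 and that of the other 5 libraries 32.79 to 38.22.

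By group, the 23 tested genes placed with the SPRY type had a median difference of 0.07 and the 3 of the PHD and bromodomain type 0.12. The 2 of the NHL type had 0.25, the 2 membrane-anchored genes -0.12 and the 6 others 0.20. The SPRY domain was not checked gene by gene. In none of these groups did a gene pass the threshold.

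The interferon-inducible members were mostly high in library BLM3, and none of those tested passed the threshold between the groups. Of 18 listed members chosen as interferon-inducible (15 TRIM and 3 RNF), 16 were tested, of which 0 rose and 0 fell (limma). At an unadjusted p under 0.05, 0 of the 16 passed, beside 20.3% of all genes. BLM3 held the highest of the 6 values in 11 of the 16. BLM3 was highest for 26.5% of all genes and lowest for 27.6%. Among the 11 is Trim30b, which passed the minimum level only through BLM3. The 13 tested TRIM genes of this list had a median difference of -0.24, and of 0.06 without BLM3. The 25 tested TRIM genes outside it had medians of 0.24 and 0.18, and BLM3 was the lowest library for 12 of them. The knockout values lay wholly above the wild-type values for 10 of these 25 and 0 of the 13, beside 15.9% of all genes. Where BLM3 was the highest library, as for 9 of the 13, this could not occur. These counts are therefore not independent of the place of BLM3. The sums of the neutrophil, monocyte, T cell, B cell and stroma and endothelium lists were also highest in BLM3. For B cells BLM3 (105.3) was close to BLM1 (101.2). The part of these cell types in the values above was not tested.

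BLM3 lay 0.79 above the mean of BLM1 and BLM2 in the median of the interferon-inducible TRIM genes on the log2(FPKM + 1) scale, and 0.14 below it (-0.14) for the other TRIM genes. Over all genes this distance was 0.01. A list of 30 interferon-stimulated genes outside the families, 29 of them listed and 28 tested, stood 1.48 higher in BLM3 and had BLM3 as the highest library in 28 of 28. Its summed FPKM was 1271 in BLM3, 406.7 and 463.6 in BLM1 and BLM2, and 343.6 to 432 in the knockout libraries. Its median difference between the groups was -0.85, and -0.41 without BLM3. With BLM3, 0 of the 28 genes passed the threshold, and 6 passed an unadjusted p under 0.05, beside 20.3% of all genes. Without BLM3, 2 of the 28 fell, beside 2.5% of all genes.

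**Figure D4:**
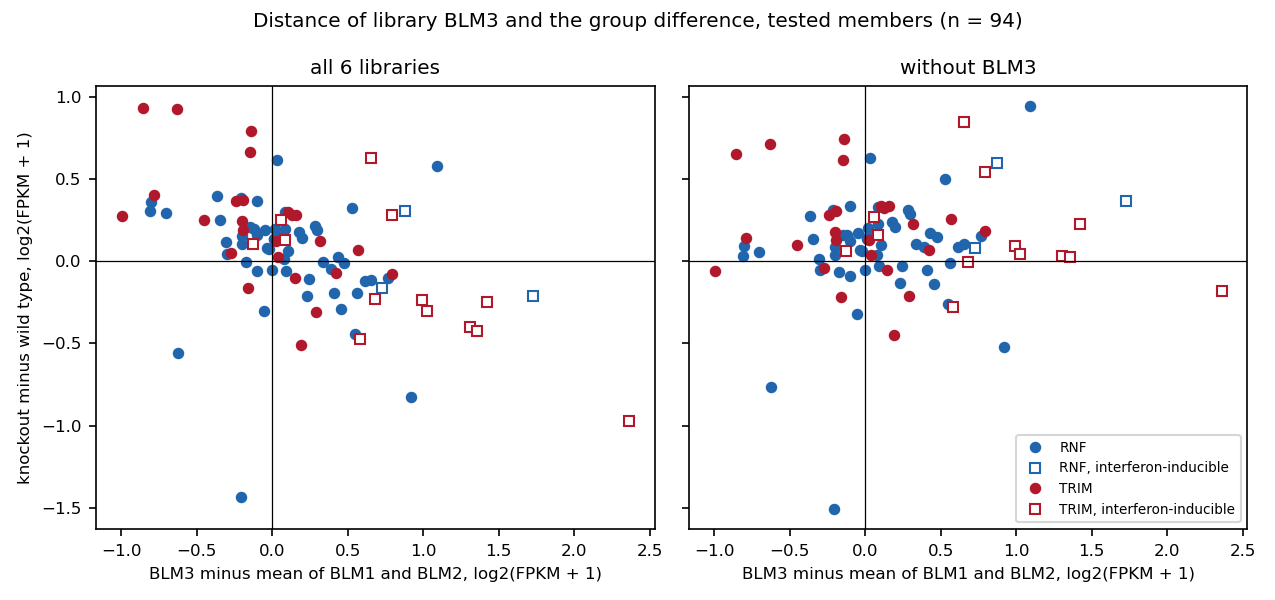
Each tested member by the distance of BLM3 from the mean of BLM1 and BLM2 (horizontal axis) and by the knockout minus wild-type difference (vertical axis), both on the log2(FPKM + 1) scale, in all 6 libraries (left) and without BLM3 (right). The axes share wild-type libraries, so no slope is read from the panels; the open squares, interferon-inducible members, lie mostly right of 0 and move up to near 0 or above it in the right panel.

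The list is concentrated in a stretch of chromosome 7 (GRCm38 chr7:104218793-104507849) whose 10 protein-coding genes are all TRIM genes. All 10 were in the table, and 36.6% of the TRIM members lie on chromosome 7, beside 6.35% of the RNF members and 7.9% of all listed genes. Trim30a had 27.96, 23.64 and 21.19 FPKM in the knockout libraries against 24.24, 22.82 and 59.63. Only BLM3 stood out, and the difference of -0.40 ± 0.36 (SE, limma adjusted p = 0.557) was 0.03 without it. Trim30d, a paralogue of Trim30a, followed the same pattern, at 10.40, 8.597 and 7.196 against 7.733, 9.264 and 23.24, with differences of -0.43 ± 0.38 and 0.03.

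Trim30b, also of this stretch, had the most extreme value, 9.082 in BLM3, where the other 5 libraries lay between 0.667 and 1.062. Its difference was -0.97 ± 0.62, and -0.18 without BLM3. Trim30b averaged 1 FPKM or more, the minimum for testing, only through BLM3. Trim30c, which was not tested, had 3.221 in BLM3 and 0.055 to 0.531 elsewhere. Every listed gene averaged 0.5001 FPKM or more in its higher group. Trim30c did so only through BLM3, and its value is no support for the pattern. Trim34a, Trim12a and Trim12c, also of this stretch, reached 24.82, 20.18 and 21.47 in BLM3 and had maxima of 13.92, 9.132 and 12.20 in the other libraries.

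Trim5, the relative of the retroviral restriction factor, had 7.713, 6.525 and 5.279 against 8.863, 7.267 and 12.51, a difference of -0.47 ± 0.21 (limma adjusted p = 0.270) and of -0.28 without BLM3. Trim6 did not share the pattern, with 1.287 in BLM3, the lowest of 6 values that reached 1.815. Trim34b, not tested, had 0.952, 0.868 and 0.817 against 0.262, 0.344 and 1.395. Over the 8 tested genes of the stretch the median difference was -0.35, and 0.04 without BLM3, and BLM3 was the highest library for 7 of 8. Trim30b, which could be tested only through BLM3, is among the 7. Copies in this stretch share sequence: 56.8% of the 50-base runs of Trim34b, 39.8% of Trim34a, 36.3% of Trim5 and 33% of Trim12c occur in another gene, so the split of reads between them is uncertain.

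**Figure D5:**
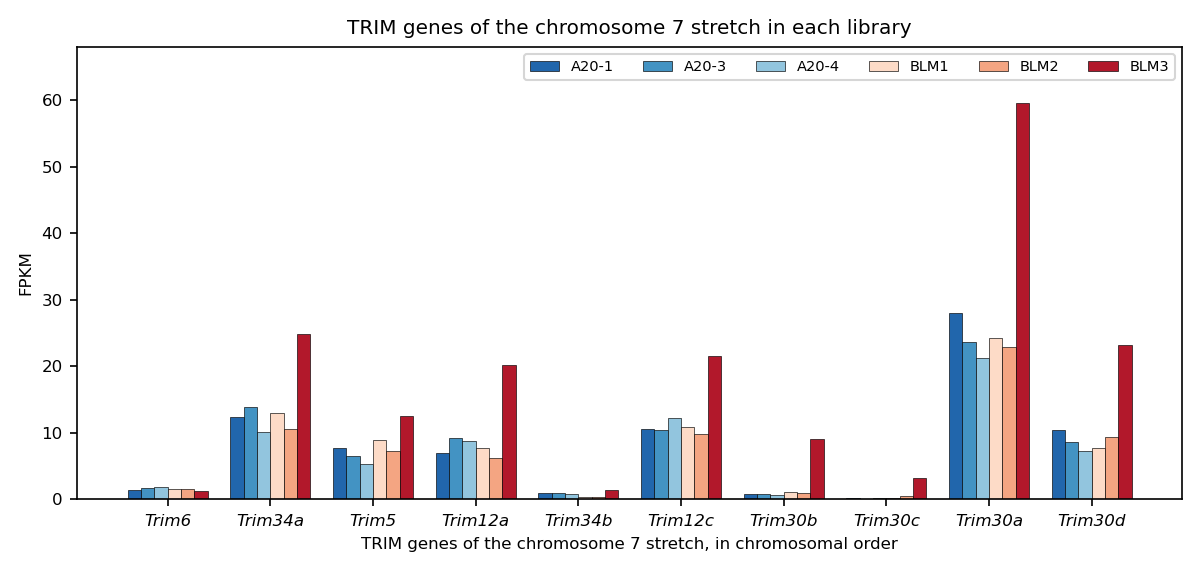
FPKM in each of the 6 libraries of the 10 TRIM genes of the chromosome 7 stretch, in chromosomal order. BLM3 (dark red) is the tallest bar for all but Trim6, reaching 59.63 for Trim30a. Trim30c reached the level of listed genes only through BLM3.

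Since these genes moved together in BLM3, their promoters were searched for the interferon-stimulated response element, the 10-letter motif written GAAANNGAAA, on both strands. The windows ran from 250 bases before to 50 after the start site of RefSeq (GRCm38.p6) and were found for 31 of 41 TRIM and 49 of 62 RNF symbols. A match was present for 8 TRIM genes (25.8%) and 3 RNF genes (6.12%), beside 4.06% of the listed genes with a window, 3.99% of all genes and 12 of 22 interferon-stimulated genes (54.5%). The 8 TRIM genes were Trim5, Trim12a, Trim12c, Trim21, Trim26, Trim30a, Trim30d and Trim34a. The stretches below, on the gene's strand and before the start site, show the match in capitals. They are given for the TRIM genes of chromosome 7 with a match before the start site and for Trim26. The RNF genes Rnf121 and Rnf146, picked for their match, are given as the contrast. The matches of Trim12a, Trim21, Trim34a and Rnf20 lie after the start site and are not shown. In Trim26, 2 matches overlap.
Trim30a, chr7:104465195-104465254 (minus): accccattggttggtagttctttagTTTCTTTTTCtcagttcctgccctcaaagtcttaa
Trim30d, chr7:104507856-104507915 (minus): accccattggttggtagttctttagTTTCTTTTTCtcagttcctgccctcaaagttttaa
Trim5, chr7:104288121-104288180 (minus): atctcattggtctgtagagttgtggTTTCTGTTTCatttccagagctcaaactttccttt
Trim12c, chr7:104353350-104353403 (minus): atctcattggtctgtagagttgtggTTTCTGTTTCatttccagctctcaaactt
Trim26, chr17:36836961-36837020 (plus): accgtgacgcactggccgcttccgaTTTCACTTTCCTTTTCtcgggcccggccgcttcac
Rnf121, chr7:102065308-102065367 (minus): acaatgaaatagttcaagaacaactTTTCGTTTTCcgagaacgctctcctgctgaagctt
Rnf146, chr10:29357811-29357870 (minus): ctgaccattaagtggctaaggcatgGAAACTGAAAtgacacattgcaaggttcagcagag

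The stretches of Trim30a and Trim30d were identical at 59 of 60 bases, and those of Trim5 and Trim12c at 52 of 54, while Trim30a and Trim5 shared 32 of 60. Interferon-inducible members with and without a match overlapped in their distance in BLM3. The median distance of BLM3 from BLM1 and BLM2 was 1.01 for the 8 members with a match (0.05 for Trim26 to 1.42 for Trim12a) and 0.88 for the 9 without one (-0.13 for Trim6 to 2.36 for Trim30b). Among the 9, Trim30b could be tested and Trim30c was listed only through BLM3. Their distances were thus bound to be high, and they raise the median of the 9. The highest of the others without a match was 1.72, for Rnf213. Rnf121 and Rnf146 had distances of -0.001 and 0.017. Echdc1 overlaps 70.2% of the exonic bases of Rnf146 on the opposite strand. Whether strand was used in counting is not given, so the value of Rnf146 is uncertain.

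Outside the chromosome 7 stretch, the interferon-inducible members varied. Trim25 had 33.74, 43.09 and 62.80 FPKM in the knockout libraries and 26.20, 23.22 and 39.32 in the wild-type libraries. BLM3 lay inside the knockout range, and the difference was 0.63 ± 0.28 (SE, limma adjusted p = 0.267), or 0.84 and 0.111 without BLM3. Trim56, a ligase of the STING pathway, had 13.34, 11.53 and 13.14 against 9.516, 7.341 and 15.22, which gave 0.28 ± 0.24, and 0.54 without BLM3 (limma adjusted p = 0.0878). Trim21, a cytosolic antibody receptor, was at 5.920 to 6.206 in the knockout libraries, at 6.114 and 5.974 in BLM1 and BLM2 and at 10.29 in BLM3. Trim26, an antiviral ligase, had 12.12 in A20-4 and 5.472 to 7.073 in the other libraries, and Trim14, an adaptor of mitochondrial antiviral signalling, lay between 4.784 and 6.815 throughout. Nans overlaps 31.3% of the exonic bases of Trim14 on the opposite strand. Whether strand was used in counting is not given, so the value of Trim14 is uncertain.

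Of the RNF genes of this list, Rnf213, a giant interferon-inducible ligase, had 19.02, 12.51 and 15.29 FPKM against 12.13, 11.37 and 41.10. Its difference turned from -0.21 ± 0.47 to 0.36 when BLM3 was left out. Rnf114, a regulator of NF-kB, had 19.49, 25.29 and 22.38 against 21.25, 20.84 and 35.43. Rnf19b, an RBR ligase of natural killer cells and macrophages, had 23.07, 20.33 and 32.04 against 17.25, 14.87 and 30.22 (0.30 ± 0.29, and 0.59 without BLM3). Rnf125, which marks RIG-I for degradation and was not on the list, had 5.622, 7.092 and 6.917 against 3.502, 2.397 and 7.331. With BLM3 its difference was 0.58 ± 0.32 (SE, limma adjusted p = 0.348), and without BLM3 it rose by 0.94 (limma adjusted p = 0.0391). Of the 50-base runs in its exons 13% also occur in Gm2996, so its value is uncertain. The 6 RNF genes of antiviral sensing had a median difference of -0.11, and of 0.08 without BLM3.

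Without BLM3, the calls among the members were thus 1 rise, Rnf125, and 1 fall, Rnf128, and 0 in the TRIM family. Over all genes that fit called 144 rises (1.35%) and 267 falls (2.5%). When limma weighted each library by its estimated quality, BLM3 received a weight of 0.229 and BLM1 one of 6.09, with the others between 0.728 and 1.26. Then 8.81% of all genes rose and 9.27% fell. In that fit 7 of 38 TRIM genes rose (Trim16, Trim25, Trim28, Trim37, Trim46, Trim47 and Trim65) and Trim7 fell. Of 56 RNF genes, Rnf125, Rnf169, Rnf216, Rnf217, Rnf6 and Rnf214 rose (the last 2 named for this call), and Rnf128, Rnf149 and Rnf7 fell. BLM1 thus carried most of the weight of the wild-type group in those calls.

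Among 2 further lists of ubiquitin genes no gene passed the threshold in all 6 libraries. Of 75 other RING ligases, 72 were listed and 69 tested, with 0 rises, 0 falls and a median difference of 0.03. They ranged from Mul1, a mitochondrial ligase, at -0.61 ± 0.28 (limma adjusted p = 0.287) to Pja1 at 0.62 ± 0.38 (limma adjusted p = 0.396). Without BLM3, 1 of the 69 rose, Rc3h1, which encodes the RNA-binding protein roquin, with a difference of 0.60 (limma adjusted p = 0.0439). Among 22 tested genes of ubiquitin, its activating enzyme and the conjugating enzymes, 0 rose and 0 fell, with a median of -0.05. At an unadjusted p under 0.05, 12 of the 69 ligases and 0 of the 22 passed, beside 20.3% of all genes.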

How the data were processed

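RNA-seq covered 6 alveolar macrophage libraries, 3 labelled wild type and 3 A20 conditional knockout. Per the labels' protocols, 1 ug of total RNA went into each library, made with a stranded kit. Per the file headers, the authors deposited FPKM per gene. The submitters' processing notes name GRCm38. Aligner, quantifier, versions and strand use: not given in the sources used here. Columns were assigned to groups by name: 3 are named for A20, and the 3 named only for the exposure were taken as wild type. The table lists 11789 genes, and the lowest mean of the higher group is 0.5001 FPKM. Sums of FPKM were 266094 to 294525 per library, read depth is unknown, so counting intervals are left out.

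Genes that averaged 1 FPKM or more (10696; 1093 left out) were compared on log2(FPKM + 1), which understates the change of low genes, with limma 3.58.1 in R 4.3.3 (lmFit, eBayes with trend), with two-sided p-values adjusted over all of them after Benjamini and Hochberg. The fit was tested on simulated data with known differences. Members were checked against GENCODE M21, where all 104 IDs occur and 98 have the same coordinates. Alternatives were other pseudocounts, filters and scalings, library weights, no trend and leaving out each library.

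The members, gene lists, role groups and tests were chosen with earlier results of these data known. Named are members past the threshold, the 5 most positive and 5 most negative differences and the 3 highest levels of each family, the interferon-inducible members, the 3 members of each family with BLM3 farthest above and below BLM1 and BLM2, and the smallest p of each role group. Others are marked where named.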

Additional observations from a re-analysis of the deposited data

How the results depend on the processing

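The read depth is unknown, and 3 libraries a group limit what can be called. Rnf128 kept its fall under every scaling, pseudocount, filter and weighting tried and without BLM2 or BLM3. Leaving out 1 library gave 0 to 1 RNF falls, 0 to 1 RNF rises and 0 TRIM calls, and over all genes 0 to 144 rises and 0 to 267 falls, with 0 of each without A20-3 and the highest counts without BLM3. Library weights gave 7 TRIM rises and 1 fall, 6 RNF rises and 3 falls, and 942 rises and 992 falls over all genes. A minimum mean FPKM of 5 gave 17 rises and 58 falls over all genes and a TRIM median of 0.22. Rescaling to a common sum (TPM) gave 41 rises over all genes and a TRIM median of 0.214, where the median of all genes was 0.104 and not 0.021. Over the 15 alternatives the TRIM median lay between 0.0558 (without BLM2; 0.0559 without A20-4) and 0.22, and the RNF median between 0.046 and 0.188. Without A20-4 the RNF median, 0.0978, was the higher, and without BLM2 it was 0.0833. Of 42 named members tested, 9 changed sign under at least 1 alternative, none of them past the threshold: Rnf114, Rnf213, Trim12a, Trim12c, Trim29, Trim30a, Trim30d and Trim34a without BLM3, and Trim26 without A20-4. The cause was not tested. No paired analysis was possible because the table's columns carry numbers of their own, which cannot be tied to the labels' replicates.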
